A study of Bos taurus with 14 samples.

Results

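A set of 6 bovine Ensembl gene IDs that the study lists under histone and histone-fold terms is described here across all 14 RNA-seq libraries, out of 27607 genes in the count table. They are ENSBTAG00000027980 (histone fold), ENSBTAG00000032455 (core histone domain), ENSBTAG00000037964 and ENSBTAG00000051969 (both H2A), ENSBTAG00000040277 (nucleosome core and histone fold) and ENSBTAG00000052609 (H4). The IDs were chosen from terms enriched among genes that the study had called on these same libraries. All 6 were listed for clusters of the comparison among Day-4 groups, and 4 of them were also listed for clusters of the comparison with Day 2. Their differences in those comparisons are therefore a description and carry no test. Only ENSBTAG00000027980 and ENSBTAG00000032455 were listed without use of Day-2 levels, so the change from Day 2 to Day 4 was tested for these 2 IDs. Their absence from the lists of the comparison with Day 2 also rests on these libraries. All 6 passed the filter on low values, in the fit on 14 libraries (13390 genes tested) and in the fit on the 9 Day-4 libraries (12069 genes tested). No table used here pairs these IDs with gene symbols, sequences or coordinates, so each is called by its ID and term.

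Each library was made from a pool of 5 embryos of Bos taurus, produced in vitro from abattoir oocytes and the semen of a single bull. The D2 group holds 5 pools of Day-2 embryos at the 4-cell stage from in vitro culture. The IVC group holds 3 pools of Day-4 embryos at the 16-cell stage that stayed in vitro. The DRY and LACT groups hold 3 pools each of 16-cell embryos recovered on Day 4 from oviducts of dairy cows that had received 50 embryos each on Day 2, at the 2- to 4-cell stage. The DRY cows were dried off at calving and the LACT cows were milked, and the 5 embryos of a pool came from the same cow. Embryos of all groups were thus fertilised in vitro and kept in culture to Day 2. The sources used here do not say whether the D2 and IVC pools came from separate batches of oocytes, so p-values measure the spread between these pools.

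The nucleosome wraps DNA around a core of H2A, H2B, H3 and H4, which pair through a shared protein shape called the histone fold. The fold is also found in proteins that are not histones, among them subunits of transcription and replication factors. An egg stores histone mRNA and protein for the first cleavages, and the embryo takes over their supply as its own genome becomes active. Most histone mRNAs made during DNA replication end in a stem-loop and carry no poly(A) tail. The library protocol captured RNA without poly(A) selection, although the sample labels name the molecule as polyA RNA. Histone genes form multigene families with near-identical copies, so counts for the H2A and H4 IDs are uncertain where reads could be shared between copies.

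Total counts were 27790816 to 30120040 in D2, 22711367 to 29625671 in IVC, 28465110 to 40357379 in DRY and 24334519 to 29953316 in LACT. The 10 genes of highest counts took 11.01% to 19.6% of counts in D2 and 40.6% to 46.8% on Day 4, and levels are given as CPM, the count in proportion to the TMM-scaled library size. A count of 3 corresponded to 0.0642 to 0.144 CPM across libraries. In each Day-4 group 1 library lay close to the mean of the other 2: IVC replicate 1 lay between them for 98.5% of 8084 genes, DRY replicate 3 for 97.4% of 8001 and LACT replicate 3 for 98.5% of 8685. The middle of 3 independent libraries is a given library for 33.3% of genes. This check used CPM before TMM scaling. On that scale all 6 histone IDs also lay between the other 2 libraries in each of these 3. After TMM scaling, DRY replicate 3 was just below both other DRY libraries for ENSBTAG00000040277 and ENSBTAG00000052609. A library made of the others would not be an independent pool. Tested changes and counts of calls are therefore given with 3 and with 2 libraries per Day-4 group, while levels and their SDs are over all libraries. With 2, the log2 fold changes of the 6 IDs moved by at most 0.08 and their SEs were 1.23 to 2.37 times as large (7 contrasts, 42 values). Markers of cumulus, oviduct and blood cells could not be matched to IDs, and the part of such cells in the results was not tested. In pooled embryos, fewer cells of a type and less RNA per cell cannot be told apart.

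The 6 IDs followed 3 courses from Day 2 to Day 4. ENSBTAG00000032455 and ENSBTAG00000052609 stood in every Day-4 group at 2.61% to 11.8% of their mean Day-2 level. ENSBTAG00000027980 and ENSBTAG00000040277 had higher means in every Day-4 group. The H2A IDs ENSBTAG00000037964 and ENSBTAG00000051969 had means in IVC that were lower than on Day 2, while their oviduct means were near or above it.

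**Figure D1:**
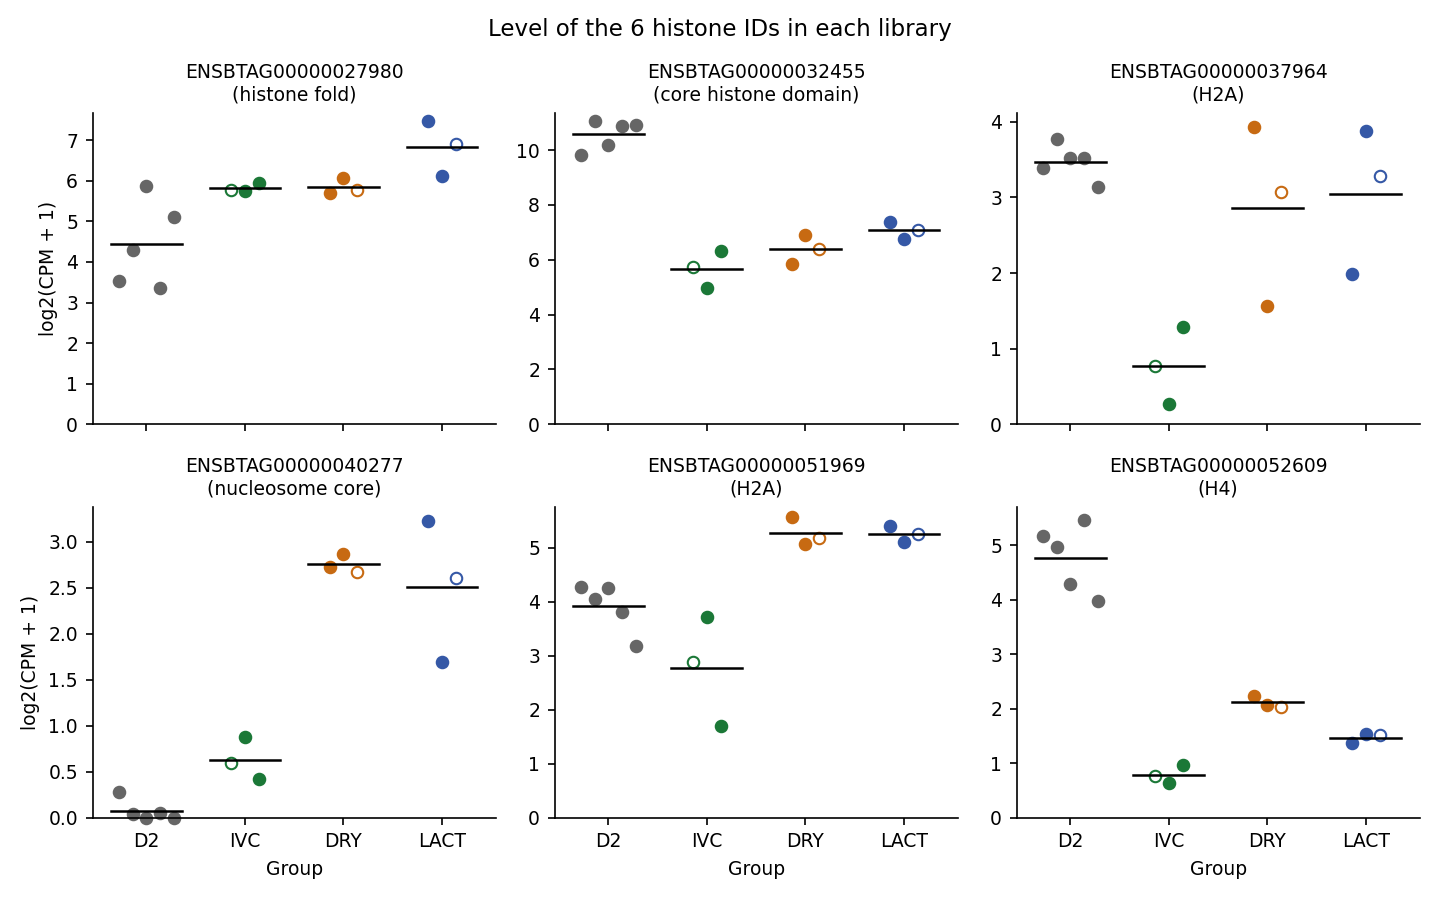
Level of each of the 6 histone IDs as log2(CPM + 1) on the y axis, by group on the x axis, with 1 point per library and a bar at the group mean. Open points are the libraries that lie close to the mean of the other 2 of their group. ENSBTAG00000032455 and ENSBTAG00000052609 are highest in D2, and IVC is the lowest Day-4 group for all 6 by mean.

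ENSBTAG00000032455, listed under the domain shared by core histones, was among the most abundant transcripts of Day-2 embryos. It ranked 26 by mean CPM among 27607 genes in D2. Its levels in the D2 libraries were 915, 2119, 1151, 1886 and 1941 CPM, from 30134 to 90628 counts. On Day 4 it stood at 51.7, 30.6 and 79.9 CPM in IVC, 57.0, 119.1 and 83.1 CPM in DRY, and 167, 108 and 136 CPM in LACT. The lowest D2 library was above every Day-4 library. The log2 fold change of Day 4 against Day 2 was −4.22 (SE 0.27), 18.6-fold lower, with an adjusted p of 8.99e-09 in edgeR's quasi-likelihood test. Leaving out the library near the mean of each Day-4 group gave −4.18 (SE 0.36, adjusted p 2.39e-06 in edgeR).

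On Day 4 ENSBTAG00000032455 had its lowest mean in IVC and its highest in LACT. IVC had a mean of 54.1 CPM ± 24.7, DRY of 86.4 CPM ± 31.2 and LACT of 137 CPM ± 29.4 (SD, n = 3 each), that is 3.38%, 5.39% and 8.57% of the Day-2 mean. Every LACT library was above every IVC library. LACT overlapped DRY, and DRY overlapped IVC, so neighbours in this order were not separated library by library. These Day-4 differences were not tested, since the choice of the ID had used them. The fitted log2 fold change was 1.27 (SE 0.38) for LACT against IVC and 0.66 (SE 0.37) for DRY against IVC.

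ENSBTAG00000052609, the ID listed under H4, was also lower in every Day-4 library than in any D2 library. H4 pairs with H3 in the centre of the nucleosome. The D2 libraries held 35.2, 30.4, 18.5, 43.4 and 14.7 CPM. The IVC libraries held 0.7098, 0.558 and 0.962 CPM, the DRY libraries 3.72, 3.22 and 3.11 CPM, and the LACT libraries 1.58, 1.90 and 1.85 CPM. No library of a group overlapped another group, and the order of means was D2, DRY, LACT and IVC. The log2 fold change against Day 2 was −5.25 (SE 0.68) in IVC, −3.09 (SE 0.60) in DRY and −3.995 (SE 0.63) in LACT. Among the 6 IDs this one stood lowest relative to Day 2 in IVC, at 2.61% of the D2 mean, against 11.8% in DRY and 6.26% in LACT.

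ENSBTAG00000027980 is listed under the histone fold and under no histone class. On Day 2 its levels were 10.5, 18.6, 57.5, 9.23 and 33.5 CPM. This is a 6.23-fold range, and 20.7% of 7543 genes with a D2 mean of at least 5 CPM had a range as wide, against a median of 2.69-fold. On Day 4 it held 53.8, 53.1 and 60.8 CPM in IVC, 51.2, 66.6 and 53.7 CPM in DRY, and 176, 68.3 and 118 CPM in LACT. The IVC and DRY libraries overlapped each other and the highest D2 library. The lowest LACT library was just above the highest DRY library. Day 4 was higher than Day 2 with a log2 fold change of 1.49 (SE 0.42), 2.81-fold, and an adjusted p of 0.00637 in edgeR's quasi-likelihood test. Without the library near the mean of each Day-4 group it was 1.53 (SE 0.52, adjusted p 0.0240 in edgeR). By group, the log2 fold change against Day 2 was 1.11 (SE 0.50) in IVC, 1.14 (SE 0.50) in DRY and 2.22 (SE 0.51) in LACT. The adjusted p in edgeR was 0.0747, 0.0681 and 0.00205, with LACT alone under an FDR of 0.05. The choice of this ID had used differences among the Day-4 groups, and all 3 contrasts share the D2 libraries. Nothing is therefore read from which group passed. With 2 libraries per Day-4 group the adjusted p in edgeR was 0.179, 0.160 and 0.0158.

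ENSBTAG00000040277, listed under nucleosome core and histone fold with no class named, was near the detection limit on Day 2. The D2 libraries held 7, 1, 0, 1 and 0 counts, or at most 0.212 CPM. The IVC libraries held 0.513, 0.837 and 0.337 CPM, all above the D2 libraries. The DRY libraries held 5.62, 6.27 and 5.38 CPM and the LACT libraries 8.32, 2.23 and 5.07 CPM. Both oviduct groups were above IVC in every library and overlapped each other. The log2 fold change against Day 2 was 3.25 (SE 1.19) in IVC, 6.59 (SE 1.33) in DRY and 6.45 (SE 1.32) in LACT. The D2 level behind these values rests on 9 counts in 5 libraries, of which D2 replicate 1 gave 7, and the log2 fold change of Day 4 against Day 2 was 5.43 with that library and 7.01 without it.

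H2A forms a dimer with H2B at the outer faces of the nucleosome, and 2 of the 6 IDs are listed under it. ENSBTAG00000051969 held 18.2, 15.6, 18.2, 12.97 and 8.07 CPM in D2. In IVC it held 6.39, 12.1 and 2.26 CPM, which overlapped D2. In DRY it held 46.5, 32.8 and 35.3 CPM and in LACT 41.3, 33.3 and 37.2 CPM, all above the highest D2 and IVC libraries. As a share of the Day-2 mean, IVC had 47.3%, DRY 261% and LACT 255%. The oviduct groups overlapped each other.

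ENSBTAG00000037964, the other H2A ID, was the steadiest of the 6 on Day 2 and the most variable in the oviduct groups. The D2 libraries held 9.47, 12.6, 10.5, 10.4 and 7.82 CPM, a 1.62-fold range, and 92.2% of genes had a range at least as wide. The IVC libraries held 0.7098, 0.199 and 1.44 CPM. The DRY libraries held 14.3, 1.96 and 7.40 CPM and the LACT libraries 2.95, 13.8 and 8.77 CPM. Within DRY the 2 outer libraries differed 7.30-fold, a width reached by 6.80% of 7902 genes, and within LACT they differed 4.66-fold, a width reached by 11.1% of 8535 genes. DRY, LACT and D2 overlapped, and every IVC library was below every other library. The mean in IVC was 7.70% of the Day-2 level, against 77.4% in DRY and 83.5% in LACT.

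**Figure D2:**
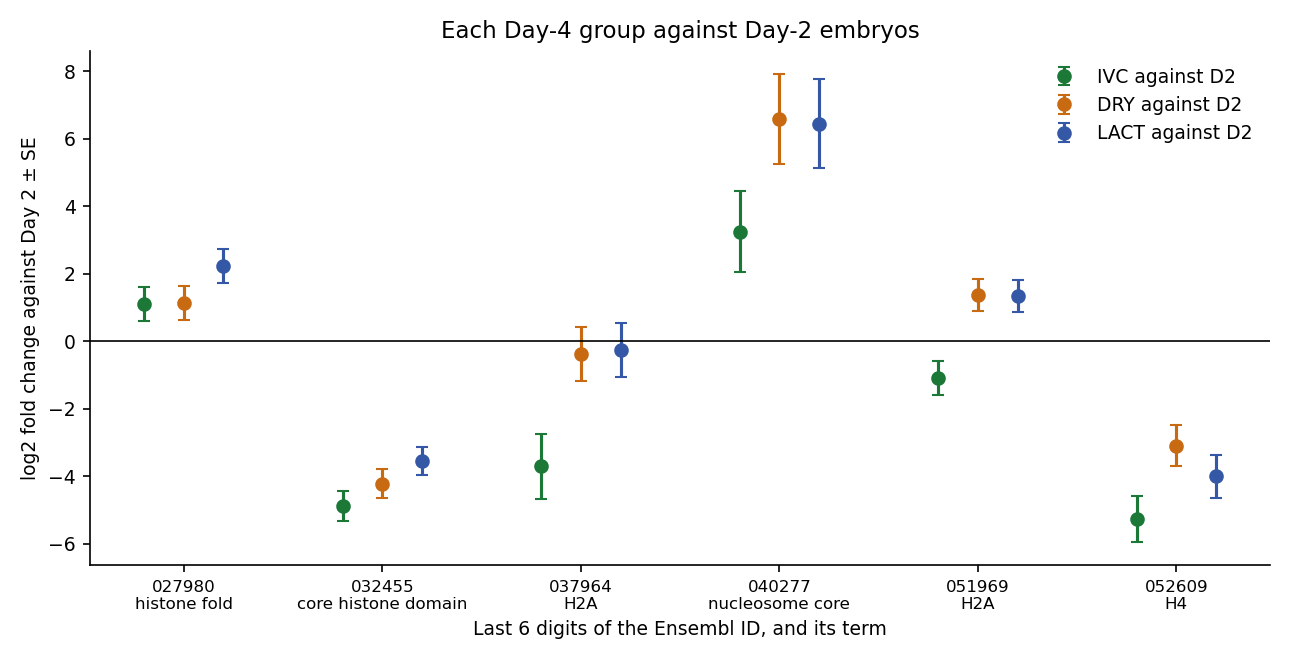
Log2 fold change of IVC, DRY and LACT against Day-2 embryos on the y axis for each of the 6 histone IDs on the x axis, with bars of 1 SE from the fit on 14 libraries. All 3 groups share the same D2 libraries. IVC lies on the other side of 0 from DRY and LACT for ENSBTAG00000051969 only.

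Counted over the 3 Day-4 groups together, 2 of the 6 IDs were called higher and 3 lower than on Day 2 at an FDR under 0.05, where 30.9% of all genes tested were called higher and 33% lower. For 4 of the 6 the choice had used this contrast, so nothing is read from the count. On 2 libraries per Day-4 group 2 IDs were called higher and 2 lower, where 25.7% of all genes were called higher and 29.5% lower. ENSBTAG00000037964 was the ID no longer called, as was also the case without any 1 of 11 of the 14 libraries. The median log2 fold change of the 6 was −0.44, against −0.03 over all genes tested.

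Summed over the 6 IDs the level was 1681 CPM ± 527 (SD, n = 5) in D2, 119 CPM ± 24.6 in IVC, 199 CPM ± 27.4 in DRY and 311 CPM ± 84.6 in LACT (SD, n = 3 each). The sum mostly follows ENSBTAG00000032455 on Day 2, which took 91.7% to 96.8% of the reads of the 6 in D2 and 31.4% to 54.8% in the Day-4 libraries. These are shares of reads and not of molecules, since gene lengths were not used here.

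Among Day-4 groups, all 6 IDs had higher levels in LACT than in IVC. The 3 LACT libraries lay above the 3 IVC libraries for 6 of 6 IDs, where 17.5% of all genes did so. The log2 fold changes were 3.37 (SE 1.03) for ENSBTAG00000037964, 3.13 (SE 0.77) for ENSBTAG00000040277, 2.35 (SE 0.53) for ENSBTAG00000051969, 1.27 (SE 0.38) for ENSBTAG00000032455, 1.18 (SE 0.76) for ENSBTAG00000052609 and 1.04 (SE 0.31) for ENSBTAG00000027980. At an FDR under 0.05, edgeR called ENSBTAG00000040277 and ENSBTAG00000051969 higher, where 3.94% of all genes were called higher. With 2 libraries per group edgeR called 0 of the 6, where 0.102% of all genes were called higher, and 2 of the 6 had an unadjusted p under 0.05, as did 6.17% of all genes in either direction. EdgeR also called 0 of the 6 when IVC replicate 1, DRY replicate 3, LACT replicate 1 or LACT replicate 3 alone was left out. Each of these fits called at most 5.94% of all genes in either direction. EdgeR called 3 without DRY replicate 1, where 12.7% of all genes were called in either direction. DESeq2 and the likelihood ratio test each called 5, where they called 19.4% and 14.9% of all genes in either direction. The choice of the IDs used this contrast, so nothing is read from the counts.

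DRY lay above IVC in every library for 4 of the 6 IDs, where 15.3% of all genes did so. This contrast shares its IVC libraries with that of LACT against IVC. The log2 fold changes were 3.33 (SE 0.78) for ENSBTAG00000040277, 3.32 (SE 1.03) for ENSBTAG00000037964, 2.45 (SE 0.53) for ENSBTAG00000051969 and 2.15 (SE 0.78) for ENSBTAG00000052609. ENSBTAG00000032455 at 0.66 (SE 0.37) and ENSBTAG00000027980 at 0.02 (SE 0.31) overlapped between the groups. At an FDR under 0.05, edgeR called ENSBTAG00000040277 and ENSBTAG00000051969 higher, where 5.95% of all genes were called higher. With 2 libraries per group edgeR called 0 of the 6, where 0.158% of all genes were called higher, and 1 had an unadjusted p under 0.05, as did 9.84% of all genes. It also called 0 of the 6 without IVC replicate 1 or without DRY replicate 3, and 3 without DRY replicate 2. Over all genes these fits called 3.98%, 3.88% and 10.5% in either direction. DESeq2 called 4 and the likelihood ratio test 3, where they called 26.1% and 20.8% of all genes in either direction. Here too the choice of the IDs used the contrast, so nothing is read from the counts.

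Between DRY and LACT the groups did not overlap for ENSBTAG00000052609, where DRY was higher with a log2 fold change of 0.97 (SE 0.75), and for ENSBTAG00000027980, where DRY was lower with −1.02 (SE 0.31). Over all genes, 14.5% had DRY above LACT in every library and 18% had DRY below. The choice of the IDs used this contrast, and ENSBTAG00000052609 comes from clusters that the study describes as higher in DRY. Nothing is therefore read from the lack of overlap or from the counts of calls. The other 4 log2 fold changes lay between −0.61 and 0.20. EdgeR called 0 of the 6 at an FDR under 0.05, where 9.65% of all genes were called, and 1 of the 6 had an unadjusted p under 0.05, as did 27.6% of all genes. ENSBTAG00000027980 was called by DESeq2 and by edgeR's likelihood ratio test, and by the quasi-likelihood test without LACT replicate 2 or with at least 10 counts required in every library. Over all genes these settings called 21.4%, 15.9%, 7.1% and 9.85%, in that order. With 2 libraries per group edgeR again called 0 of the 6, where 0.501% of all genes were called, and 0 had an unadjusted p under 0.05, against 7.89% of all genes.

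**Figure D3:**
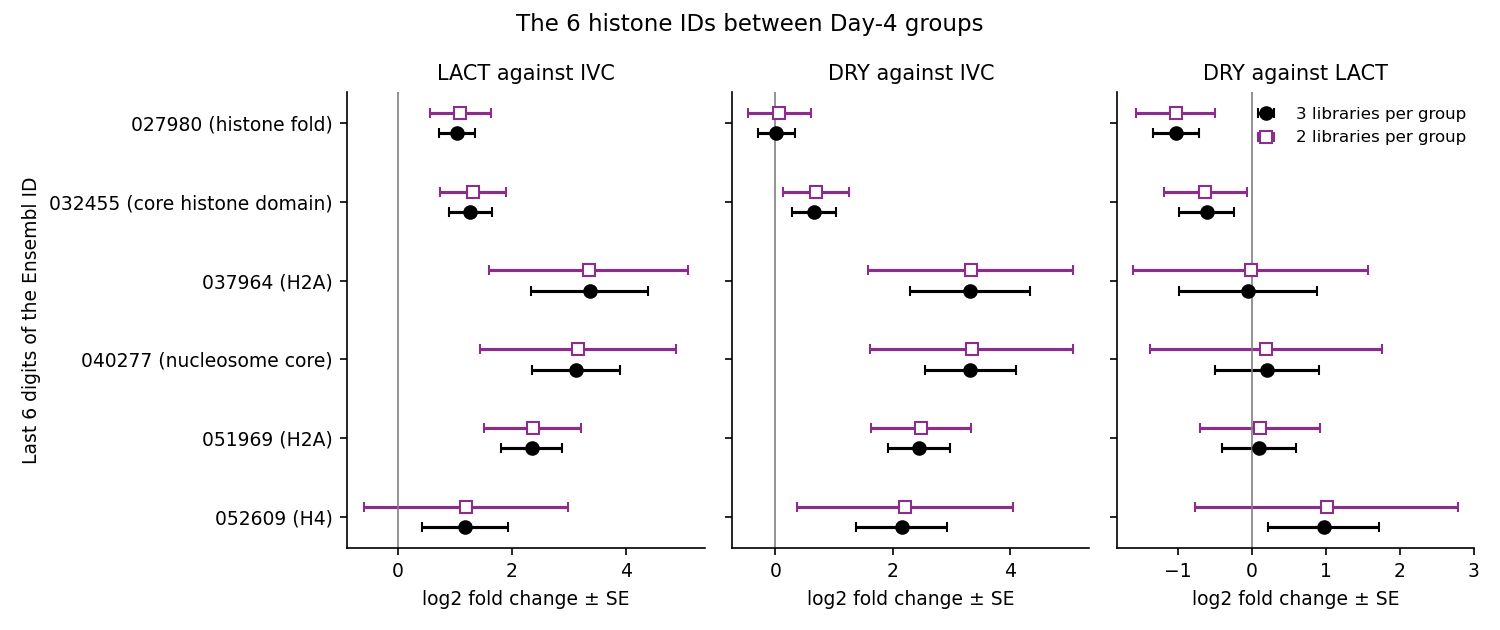
Log2 fold changes on the x axis with bars of 1 SE for the 6 histone IDs on the y axis, for LACT against IVC, DRY against IVC and DRY against LACT (filled circles, 3 libraries each; open squares, 2). Both oviduct groups lie at or above 0 against IVC for all 6, and bars are wider with 2 libraries per group.

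The study lists 23 Ensembl IDs in all under nucleosome and histone terms, the 6 and 17 others, again chosen from clusters called on these libraries. All 23 were tested with 3 libraries per group. For Day 4 against Day 2, edgeR called 8 of 23 higher and 8 lower, where 30.9% and 33% of all genes were, with a median log2 fold change of 0.15. On 2 libraries per Day-4 group it called 6 higher and 7 lower, where 25.7% and 29.5% of all genes were. Of 3 H4 IDs, ENSBTAG00000052609 and ENSBTAG00000053034 were called lower and ENSBTAG00000049555 higher, also on 2 libraries per Day-4 group. Of 4 H2A IDs, ENSBTAG00000046992 and ENSBTAG00000048743 were called higher and ENSBTAG00000037964 lower, but on 2 libraries per Day-4 group ENSBTAG00000046992 was the 1 still called. The choice of these H2A and H4 IDs had used the comparison with Day 2, except for ENSBTAG00000049555.

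Of these 23 IDs, 11 were listed only in the comparison among Day-4 groups, which used no Day-2 levels. Setting them apart from the rest did use the lists of the comparison with Day 2, so nothing is read from the counts of those called. For Day 4 against Day 2, edgeR called 4 of the 11 higher and 2 lower, where 30.9% and 33% of all genes were, and 3 and 2 on 2 libraries per Day-4 group. The ID with the lowest adjusted p among those called higher was ENSBTAG00000026199, listed under nucleosome. Its mean was 362 CPM in D2, with a log2 fold change of 2.19 (SE 0.21, adjusted p 5.33e-07 in edgeR). Its lowest Day-4 library, at 1239 CPM, was above its highest D2 library, at 545 CPM. Over the 9 Day-4 libraries ENSBTAG00000026199 had the highest mean CPM of the 23, followed by ENSBTAG00000032455 and ENSBTAG00000027980. ENSBTAG00000026199 was first in each Day-4 group, while the order after it differed, with ENSBTAG00000027980 second in IVC and ENSBTAG00000047206 second in DRY. On Day 2 the highest were ENSBTAG00000032455, ENSBTAG00000026199 and ENSBTAG00000047206.

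Of the IDs outside the 6, ENSBTAG00000046992 was not detectable in D2 and ENSBTAG00000047206 was among those lower on Day 4. ENSBTAG00000046992, listed under H2A, had 0 counts in all 5 D2 libraries, which allows up to 0.107 CPM, and 0.0481 to 6.53 CPM on Day 4. Its Day-4 mean of 3.19 CPM was at least 29.8-fold higher than that limit. ENSBTAG00000047206, listed under nucleosome, had a mean of 216 CPM in D2 and a log2 fold change of −1.97 (SE 0.22) on Day 4, the third lowest adjusted p among the IDs called lower, after ENSBTAG00000032455 and ENSBTAG00000052609. Both were listed in the comparison with Day 2.

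**Figure D4:**
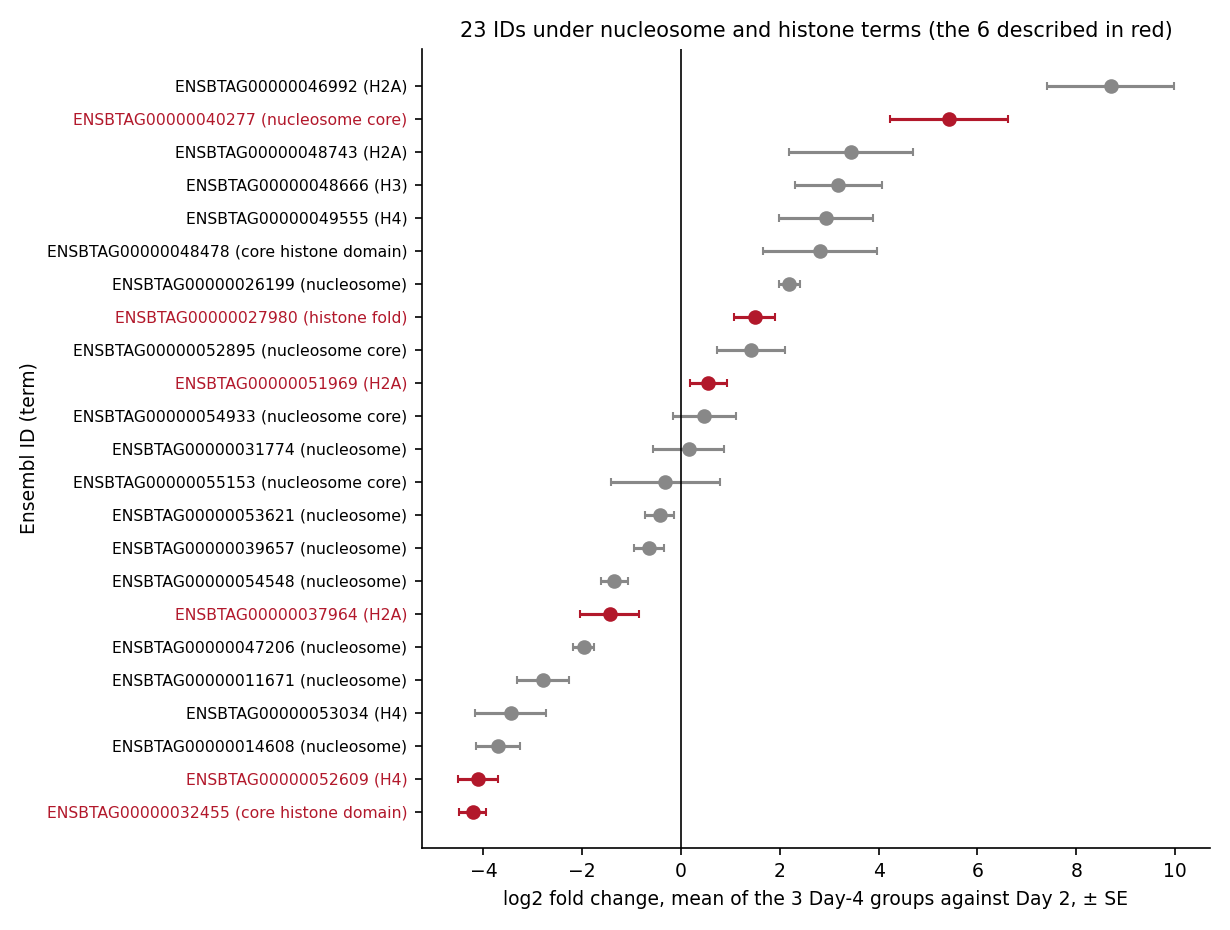
Log2 fold change of the mean of the 3 Day-4 groups against Day 2 on the x axis, with bars of 1 SE, for the 23 Ensembl IDs listed under nucleosome and histone terms on the y axis. The 6 described IDs are in red and span the range from −4.22 to 5.43; the fitted value of ENSBTAG00000046992 at the top depends on the prior count because every D2 library had 0 counts.

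Between Day-4 groups the 23 IDs all had positive log2 fold changes in LACT against IVC (median 2.11) and in DRY against IVC (median 2.45), where the medians over all genes were −0.03 and −0.08. The clusters from which the IDs were taken were defined by higher levels in oviduct embryos than in IVC, so the shared sign is what the choice fixed. The study describes a Day-4 cluster, which lists ENSBTAG00000052895 among others, as higher in DRY. The choice therefore also used DRY against LACT. EdgeR called 4 of the 23 higher in LACT than in IVC, where 3.94% of all genes were, with the lowest adjusted p for ENSBTAG00000048743 (H2A), ENSBTAG00000051969 and ENSBTAG00000054548. It called 9 higher in DRY than in IVC, where 5.95% of all genes were, with the lowest for ENSBTAG00000047206, ENSBTAG00000048743 and ENSBTAG00000052895. ENSBTAG00000052895, listed under nucleosome core, was the 1 ID called in DRY against LACT, where 9.65% of all genes were, at 42.7, 35.3 and 34.8 CPM in DRY and 7.97, 15.6 and 12.1 CPM in LACT. Without IVC replicate 1 edgeR called 0 of the 23 in LACT against IVC, 2 in DRY against IVC and 0 in DRY against LACT. Without DRY replicate 3 it called 1, 3 and 0. In each of these contrasts both fits called at most 4.54% of all genes in either direction. Without LACT replicate 3 edgeR called 1 in LACT against IVC and 0 in DRY against LACT, where 1.09% and 2.47% of all genes were called. Without LACT replicate 1 it called 2 in each, where 5.94% and 7.19% of all genes were. Without DRY replicate 2 or LACT replicate 2 it called 2 in DRY against LACT, where 7.18% and 7.1% of all genes were. Without DRY replicate 1 it called 8 in LACT against IVC, where 12.7% of all genes were. With 2 libraries per group edgeR called 0 of the 22 IDs tested in each contrast, where 0.102% of all genes were called higher in LACT and 0.158% in DRY than in IVC, and 0.501% were called in DRY against LACT. An unadjusted p under 0.05 was then found for 3 IDs in LACT against IVC, 9 in DRY against IVC and 2 in DRY against LACT, and for 6.17%, 9.84% and 7.89% of all genes.

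For each ID the gene with the most similar pattern was taken as the highest Pearson r of log2(CPM + 1) over 14 libraries among 13389 other genes. The closest genes were ENSBTAG00000011368 for ENSBTAG00000027980 (r = 0.95), ENSBTAG00000013274 for ENSBTAG00000032455 (r = 0.99), ENSBTAG00000027809 for ENSBTAG00000037964 (r = 0.97), ENSBTAG00000001519 for ENSBTAG00000040277 (r = 0.99), ENSBTAG00000013740 for ENSBTAG00000051969 (r = 0.96) and ENSBTAG00000011793 for ENSBTAG00000052609 (r = 0.99). None of these 6 genes is among the 23 IDs. Over 11 libraries, without the library near the mean in each Day-4 group, 5 of the 6 kept their closest gene, and ENSBTAG00000051969 was then closest to ENSBTAG00000025443 (r = 0.95). The libraries share day and group, so these values describe a common course over groups. ENSBTAG00000013274 had a mean of 303 CPM in D2, against 1.47 CPM in IVC, 3.31 CPM in DRY and 11.9 CPM in LACT, the same order of groups as ENSBTAG00000032455. ENSBTAG00000001519 had a mean of 0.0973 CPM in D2, against 0.784 CPM in IVC, 6.99 CPM in DRY and 5.88 CPM in LACT, the order of ENSBTAG00000040277.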

How the data were processed

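RNA-seq was measured in 14 libraries of pooled bovine embryos. The authors deposited raw counts of reads per Ensembl gene. Per the submitters' processing notes reads were checked with FastQC 0.11.9, trimmed with Trimmomatic, aligned with STAR 2.7.0b and counted with featureCounts of Subread 2.0.3; the strand setting and annotation release are not given in the sources used here. Groups came from the sample labels. Genes reaching 1 CPM in 3 or more libraries were kept, scaled with TMM and fitted with edgeR 4.0.16 (robust quasi-likelihood, R 4.3.3), contrasts with Day 2 on 14 libraries and contrasts among Day-4 groups on 9. P-values were adjusted over all genes by Benjamini-Hochberg. Groups "do not overlap" where every library of one exceeds every library of the other. Scripts were tested on simulated data.

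The members and lists were chosen with earlier results of these data known. Named genes are the 6 IDs, at most 3 called higher and 3 lower per contrast with the lowest FDR among the 23 listed IDs, the 3 of highest mean CPM on each day, and the gene of highest r for each ID. Term lists were read by Ensembl ID and are shorter than the study's term counts. Lists by symbol (histone supply genes, cell type markers) were not analysed here. DESeq2 1.42.0 was an alternative.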

Additional observations from a re-analysis of the deposited data

Results flagged for a closer look

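Among the 23 listed IDs, 4 had a Day-2 library whose gap to the others was wide for a group of 5, by Dixon's criterion; chance alone gives this in about 1 in 20 groups, and groups of 3 were not tested. ENSBTAG00000040277 stood at 0.212 CPM (7 counts) in D2 replicate 1, with the next library at 0.0356 CPM. ENSBTAG00000049555, listed under H4, stood at 4.95 CPM in the same library, with the next at 0.945 CPM. ENSBTAG00000026199 stood at 545 CPM in D2 replicate 3, with the next at 347 CPM. ENSBTAG00000048743 stood at 1.71 CPM in D2 replicate 4, with the next at 0.486 CPM. The cause was not tested.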

How the results depend on the processing

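The fall of ENSBTAG00000032455 and the rise of ENSBTAG00000027980 from Day 2 to Day 4 kept their direction and an FDR under 0.05 under every alternative run (log2 fold changes −4.37 to −3.98 and 1.27 to 2.01, leaving out each library included). No called log2 fold change of the 6 IDs changed sign under any alternative. The number of the 23 IDs called moved more, and so did the share of all genes called. For Day 4 against Day 2 it was 16, and 10 with at least 10 counts in every library, where fewer IDs could be tested and 73.4% of all genes were called. For LACT against IVC it was 4. It was 2 without a filter, 18 with DESeq2, 11 with the likelihood ratio test, 1 at an FDR under 0.01, 0 with 2 libraries per Day-4 group, 1 in the fit on 14 libraries and 0 to 8 when single libraries were left out; over all genes 8.43% were called, and 3.48%, 19.4%, 14.9%, 1.67%, 0.13% and 3.41% under the first 6 of these. For DRY against IVC it was 9. It was 20 with DESeq2, 17 with the likelihood ratio test, 2 at an FDR under 0.01, 0 with 2 libraries per Day-4 group, 5 in the fit on 14 libraries and 2 to 12 when single libraries were left out; over all genes 13.8% were called, and 26.1%, 20.8%, 3.73%, 0.686% and 6.16% under the first 5 of these. For DRY against LACT it was 1. It was 2 with DESeq2's size factors, with at least 10 counts in every library and without the 10 genes of highest counts, 4 with DESeq2 and with the likelihood ratio test, 0 at an FDR under 0.01, with 2 libraries per group and in the fit on 14 libraries, and 0 to 2 when single libraries were left out; over all genes 9.65% were called, and 0.501% to 21.4% under these settings other than single libraries. The median of the 6 IDs in DRY against LACT was 0.02, and −0.32 to 0.17 when single libraries were left out. These causes were not tested. DESeq2's size factors moved the median log2 fold change of all genes for Day 4 against Day 2 from −0.03 to 0.12.

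Same-numbered libraries did not deviate together (r from −0.05 to 0.10 over 18 pairs, 1 of them over 0.1), and the main fits do not pair them. IVC replicate 1, DRY replicate 3 and LACT replicate 3 deviate little from their group means. Pairs that hold them therefore say little about whether the numbers pair libraries. With the replicate block, 2 of the 23 IDs were called in LACT against IVC, and 14, 8 and 1 in Day 4 against Day 2, DRY against IVC and DRY against LACT. Over all genes 4.05% were then called in LACT against IVC, and 57.1%, 7.75% and 4.66% in the others in the same order. Histone supply genes were not run under any setting, since their list is by symbol. ENSBTAG00000037964 and ENSBTAG00000040277 have no value under the minimum of 10 counts in every library. Levels under about 1 CPM, as for ENSBTAG00000037964 and ENSBTAG00000052609 in IVC and ENSBTAG00000040277 on Day 2, rest on few counts, and their fold changes are the least precise.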

Other observations

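Some of the 17 other IDs differed widely between pools of the same oviduct group; they are named here after their values were seen. ENSBTAG00000055153, listed under nucleosome core, had 0 counts in DRY replicate 1 and LACT replicate 1, against 39.1 and 23.7 CPM in the other DRY libraries and 25.6 and 13.6 CPM in the other LACT libraries, and 0 to 0.0481 CPM in IVC. The 23.7 and 13.6 CPM are from DRY replicate 3 and LACT replicate 3, which lie close to the mean of the other 2 for most genes and may not be independent pools. ENSBTAG00000048478, listed under core histone domain, stood at 17.8, 0.536 and 8.81 CPM in DRY and 3.04, 22.5 and 13.6 CPM in LACT. ENSBTAG00000037964 was likewise highest in DRY replicate 1 and LACT replicate 2 and lowest in DRY replicate 2 and LACT replicate 1.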
